A study of Mus musculus with 4 samples.

Results

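Spleen cluster 4 was a group of CD4+ T cells that had been sorted as regulatory T (Treg) cells but held little Foxp3 mRNA, the transcript of the factor that defines Treg cells. Its members were the cells with number 4 in the cluster column of the deposited spleen cell table, 1392 of 10912 spleen cells and of 14875 cells in the series. They were 737 of 4995 cells in the library labelled ICOS WT and 655 of 5917 cells in the library labelled ICOS FC. The clusters were made by the submitters from the expression of these same cells, so differences between cluster 4 and the other clusters are given as a description and support nothing.

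The study compared Treg cells of ICOS WT mice with those of ICOS FC mice, whose genotype label reads ICOS-deficient, in single-cell 3′ RNA libraries (10x Genomics, version 3.1 chemistry). ICOS, a relative of CD28, is a receptor that delivers costimulation to activated T cells. Both spleen groups were C57BL/6 mice at steady state, and their live CD4+ TCRβ+ YFP+ spleen cells were sorted at more than 95% purity. The series also holds 2 libraries, ICOS WT and ICOS FC, of cervical lymph node cells sorted the same way 1 day after challenge with oxazolone, a hapten, which are used here for marker levels only. Each group was 1 library; the labels give neither the number of mice nor the gene whose promoter drives YFP, a fluorescent protein. The deposited cell names read Control and KO, and these were matched to ICOS WT and ICOS FC from the words alone. With 1 library per group there was no replicate check and no test; intervals are at 95%, exact except for a normal interval on differences of log2 ratios, unadjusted over genes, and cover counting error only.

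Treg cells restrain other immune cells and depend on Foxp3, and they carry high levels of the IL-2 receptor chain Il2ra, of Ctla4 and, in many cells, of Ikzf2 (Helios). Conventional CD4+ T cells lack stable Foxp3 and, when naive, circulate through lymphoid tissue under a program that includes the transcription factors Lef1 and Tcf7 and the homing receptor Ccr7. After activation they can present CD40 ligand, which licenses B cells and dendritic cells.

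Some facts of the libraries bear on the results. Icos mRNA outside cluster 4 was 126 CPM (counts per 1000000 UMIs, where a UMI is 1 captured transcript molecule) in the library labelled ICOS WT and 287 CPM in the library labelled ICOS FC, so the level of the gene went against the word deficient in the label. A 3′ count does not show whether the transcript is intact, and which part was deleted is not stated. The 2 spleen libraries shared 8 cell barcodes, and 1 cell of cluster 4 carried one of them. Cluster 4 held 4146074 and 3291353 UMIs in the libraries labelled ICOS WT and FC, with medians of 1638 and 1492 genes per cell and 4.07% and 3.94% mitochondrial counts. It held 14 and 19 of the 5% of cells with the most UMIs in each library. No caller for doublets was run, and whether doublets had been removed before deposit is not stated in the sources used here.

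The label was checked against the markers. Foxp3 was 2.17 CPM in cluster 4 of the library labelled ICOS WT (9 UMIs) and 6.38 CPM in that labelled ICOS FC (21 UMIs), against 62.4 and 65.9 CPM in the remaining cells. Cluster 4 had the lowest Foxp3 of the 7 spleen clusters in both libraries, and the next lowest stood at 46.7 and 35.8 CPM. A Foxp3 UMI was found in 1.22% of 737 cells and 2.44% of 655 cells, and in 24.2% of the remaining cells of each library. With every cell thinned to 2000 UMIs, which left 734 and 652 cells of cluster 4 and 4172 and 5110 of the remaining cells, these shares were 0.545% and 0.920% in cluster 4 and 11.3% and 12.5% in the rest. The spleen table has no cell type known to lack Foxp3, so the share that free RNA would give is not known. The name Foxp3-low therefore fits the measured level, and the cells are called cluster 4 below.

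The 6 markers that came with the choice of this cluster were Pdlim4, Klrd1, Dapl1, Vipr1, Tgfbr3 and Cd40lg. The bases before the start sites of 3 of them are shown because these are genes whose mRNA set cluster 4 apart and whose promoter windows lie outside annotated exons. The genes themselves lie, in GRCm38.p6, on chromosome 11 at 54054928 to 54069014 (Pdlim4, reverse strand), chromosome 2 at 59484653 to 59505020 (Dapl1, forward strand) and chromosome 9 at 121642716 to 121672954 (Vipr1, forward strand). Each window is the 250 bases before the RefSeq start site, 5′ to 3′ on the strand of the gene, at chr11:54069018-54069267 for Pdlim4, chr2:59484403-59484652 for Dapl1 and chr9:121642466-121642715 for Vipr1. Capitals mark matches to the GC box, searched as GGGCGG, and to the CCAAT box, searched by the letters of its name. Both strands were searched, so a match on the opposite strand shows as the reverse complement.
Pdlim4: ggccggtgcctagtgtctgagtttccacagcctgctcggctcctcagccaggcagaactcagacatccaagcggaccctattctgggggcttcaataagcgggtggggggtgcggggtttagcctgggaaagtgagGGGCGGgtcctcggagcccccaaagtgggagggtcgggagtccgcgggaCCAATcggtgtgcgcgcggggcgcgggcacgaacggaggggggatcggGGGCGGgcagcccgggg
Dapl1: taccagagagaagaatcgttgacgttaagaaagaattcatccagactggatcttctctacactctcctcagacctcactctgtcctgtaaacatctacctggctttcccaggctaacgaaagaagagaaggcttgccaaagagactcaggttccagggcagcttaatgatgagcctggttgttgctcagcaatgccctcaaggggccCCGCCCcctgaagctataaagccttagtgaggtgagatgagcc
Vipr1: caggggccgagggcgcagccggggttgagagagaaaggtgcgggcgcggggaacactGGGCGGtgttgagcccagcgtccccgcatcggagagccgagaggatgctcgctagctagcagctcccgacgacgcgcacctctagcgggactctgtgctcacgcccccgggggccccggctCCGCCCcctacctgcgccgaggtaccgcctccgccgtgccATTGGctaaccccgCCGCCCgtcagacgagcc
The Pdlim4 window was 69.2% G and C and held 2 GC boxes and 1 CCAAT box, and the Vipr1 window was 72.8% G and C with 3 and 1. The Dapl1 window was 50.0% G and C and held 1 GC box, 43 to 38 bases before the start. Of the 15 genes ranked highest in cluster 4, 10 had a RefSeq promoter entry. A GC box was present in 9 of these 10 and in 35.4% of all 27018 genes with an entry, and a CCAAT box in 5 of 10 and in 37.5%. The 27018 genes were not limited to those expressed in these cells, so these shares do not show a trait of cluster 4 genes. The windows of Als2cl and Tmie lay almost wholly in annotated exons (247 to 250 of 250 bases). Als2cl and Tmie share 248 bases of their windows, with the same 3 GC boxes, and so count as 2 genes on 1 stretch, and Sgk1 was searched over 6 windows. The TCF/LEF core, searched as CTTTGA or CTTTGT on both strands because Lef1 was high in these cells, was present in 1 of 10 (Sgk1) and in 30.8% of genes. None of these motifs contains another. A match is a description of the letters and not a binding site.

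Pdlim4 encodes a protein with a PDZ and a LIM domain that binds the actin cytoskeleton, and it stood apart most. Its level was 101 CPM (420 UMIs) in cluster 4 of the library labelled ICOS WT and 80.5 CPM (265 UMIs) in that labelled ICOS FC, against 2.39 and 1.00 CPM in the remaining cells, a 42.4-fold and an 80.4-fold difference. The next highest clusters reached 17.3 CPM (cluster 6, 47 cells) and 3.11 CPM (cluster 3). Pdlim4 was thus low in every other spleen cluster of both libraries. Klrd1 (CD94), a lectin-like subunit of receptors on natural killer cells and some T cells, was 22.7 and 34.3 CPM against 1.43 and 1.32 CPM. Dapl1, named for its likeness to death-associated protein, was the most abundant of the 6 at 384 and 293 CPM, against 42.3 and 27.5 CPM. Klrd1 and Dapl1 were each highest in cluster 4 in both libraries.

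Vipr1, a receptor for vasoactive intestinal peptide, was 33.3 and 32.8 CPM in cluster 4 and 5.6 and 4.49 CPM in the rest. Tgfbr3, the TGF-β co-receptor betaglycan, was 27.3 and 28.6 CPM against 6.95 and 5.65 CPM. Cd40lg, the ligand of CD40, was 56.0 and 59.9 CPM against 21.8 and 15.6 CPM. For Vipr1 and Tgfbr3 cluster 4 was the highest of the 7 clusters in both libraries. Cd40lg was highest there in the library labelled ICOS FC, but in the library labelled ICOS WT cluster 5 was at 57.8 CPM, a level not told apart from cluster 4 at this depth.

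**Figure D1:**
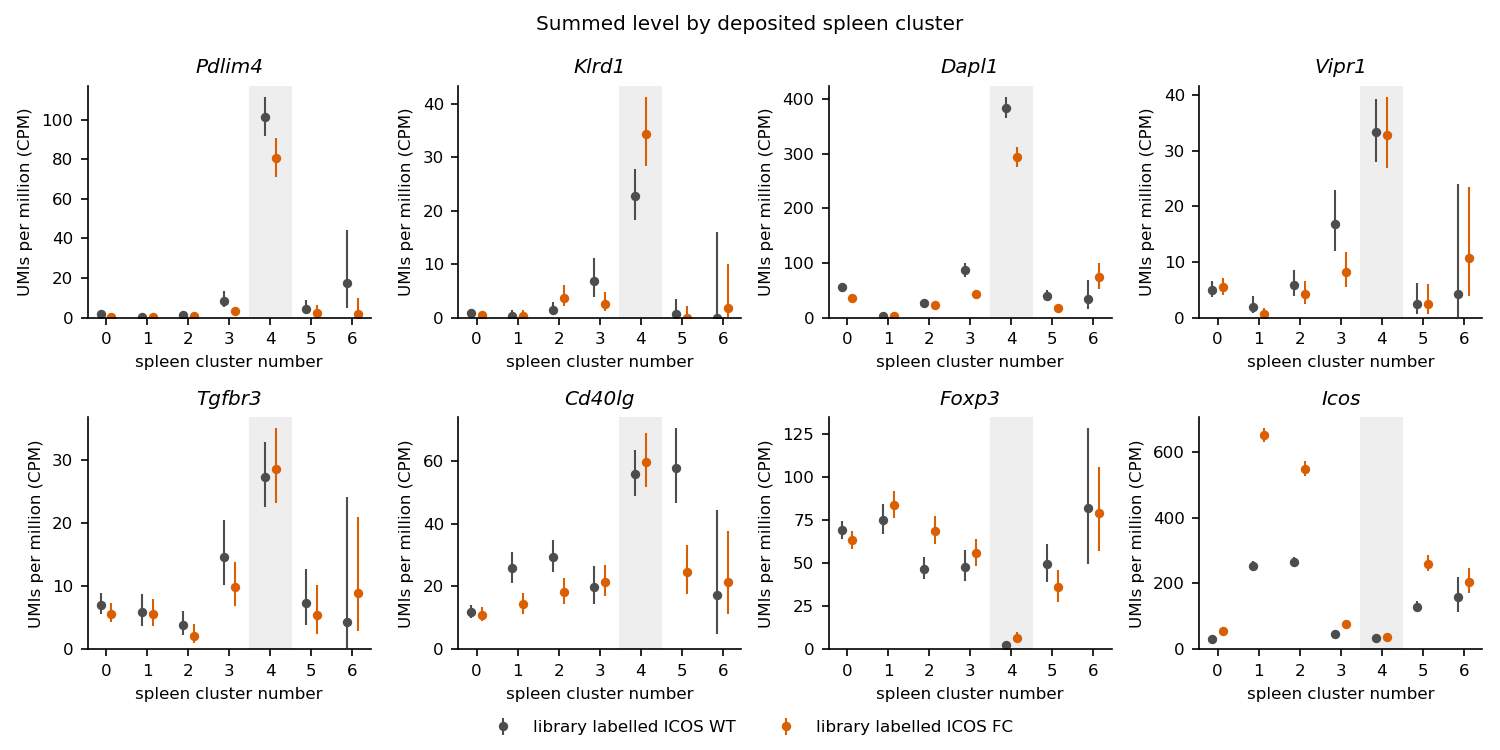
Level in CPM (vertical axis, from 0, a separate scale per gene) of the 6 markers, Foxp3 and Icos in each of the 7 deposited spleen clusters (horizontal axis), with exact 95% counting intervals. Grey points are the library labelled ICOS WT, orange points that labelled ICOS FC, and the shaded strip is cluster 4, where Pdlim4 stood at 101 and 80.5 CPM and Foxp3 at 2.17 and 6.38 CPM.

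A gene was counted as higher or lower in cluster 4 than in the remaining spleen cells when it reached 20 CPM on a side in both libraries, differed by at least 2-fold in the same direction in both, and had both intervals clear of equality. Of 5008 genes compared, 31 were higher (0.619%) and 215 were lower (4.29%). All 6 markers were among the 31, which is a check of the marker choice and no finding. The ribosomal protein genes summed to 443652 and 443165 CPM in cluster 4 and to 376365 and 381167 CPM in the rest, and the median log2 ratio of all genes was -0.17 and -0.15. Scaling by TMM factors moved these medians to 0.01 and 0.01 and gave 46 higher and 164 lower genes, so small ratios are best read against that shift.

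The markers apart, the gene ranked highest was Nacc2, a transcriptional repressor with a BTB domain. It was 28.9 CPM in cluster 4 of both libraries and 1.43 and 1.20 CPM in the rest. Pde3b, a phosphodiesterase that breaks down cyclic AMP, was 76.5 and 66.5 CPM against 8.12 and 7.49 CPM. Igfbp4, an insulin-like growth factor binding protein, was 394 and 422 CPM against 119 and 88.2 CPM. The others among the 15 ranked highest were Ggt5, a γ-glutamyltransferase (21.0 and 21.0 CPM, against 1.26 and 2.04), Hs3st3b1, a heparan sulfate sulfotransferase (22.9 and 21.6 CPM, against 4.21 and 2.76), the kinase Sgk1 (49.2 and 43.4 CPM, against 13.6 and 10.9), Rgcc, a regulator of the cell cycle (76.5 and 69.6 CPM, against 22.5 and 14.1), and Tdrp, Als2cl and Tmie. In each of them both libraries showed the same direction, as the rule requires.

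Als2cl and Tmie are head-to-head neighbours on chromosome 9, with RefSeq start sites at 110880322 on the forward and 110880073 on the reverse strand. Als2cl was 54.0 and 51.7 CPM in cluster 4 against 13.4 and 11.7 CPM, and Tmie was 22.9 and 21.0 CPM against 5.04 and 4.81 CPM. The annotated gene bodies overlap, and whether strand was used in counting is not stated in the sources used here, so reads of the shared stretch cannot be assigned between these genes with certainty. That stretch lies at the start of both genes, and how many reads of these 3′ libraries fall in it was not counted.

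**Figure D2:**
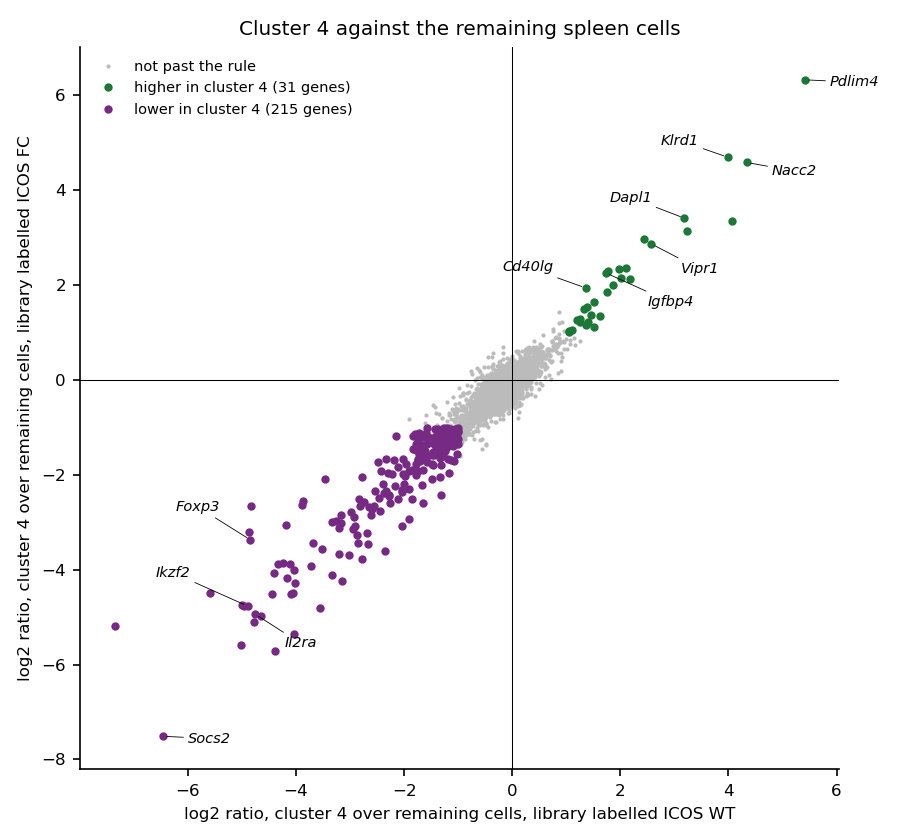
Log2 ratio of CPM in cluster 4 over the remaining spleen cells, in the library labelled ICOS WT (horizontal axis) and in that labelled ICOS FC (vertical axis), 1 point per gene that reached 20 CPM on a side in both. The 31 higher genes are green and the 215 lower genes purple, and Pdlim4 at the upper right and Socs2 at the lower left stood furthest from the rest among the genes labelled.

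Treg identity genes were low as a group. Of 20 listed genes 17 reached the minimum level, and 17 of 17 were lower in cluster 4, with median log2 ratios of -4.06 and -4.50. Their list summed to 328 and 350 CPM in cluster 4 and to 3615 and 4102 CPM in the rest. Ikzf2 was 28.5 and 33.1 CPM against 846 and 901 CPM, and Il2ra was 6.99 and 6.08 CPM against 189 and 186 CPM. Ctla4, an inhibitory receptor that removes CD80 and CD86 from other cells, was 3.86 and 5.77 CPM against 121 and 156 CPM. In the library labelled ICOS WT these 3 transcripts were 29.7-fold, 27.0-fold and 31.3-fold lower.

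Other members of the list were lower too. Nrp1, a semaphorin receptor, was 4.58 and 3.95 CPM against 125 and 136 CPM, and Tnfrsf4 (OX40) 12.8 and 12.2 CPM against 319 and 382 CPM. Lrrc32 (GARP), which holds latent TGF-β on the Treg surface, was 1.69 and 1.22 CPM against 54.6 and 58.6 CPM. Socs2, a feedback inhibitor of cytokine signalling, had 2 and 1 UMIs in cluster 4 and 42.7 and 55.4 CPM in the rest, with log2 ratios of -6.47 (interval -9.51 to -4.61) and -7.51 (-12.8 to -5.03). The list was not uniformly near 0: Izumo1r (folate receptor 4) was at 101 and 114 CPM against 603 and 755 CPM, and Tnfrsf18 (GITR) at 54.8 and 52.3 CPM against 284 and 273 CPM.

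Il2rb, the second chain of the IL-2 receptor, was 16.6 and 11.5 CPM against 278 and 261 CPM, while the shared chain Il2rg was 237 and 260 CPM against 288 and 256 CPM and did not pass the rule. Il7r, the receptor for IL-7, was 622 and 500 CPM against 380 and 382 CPM and did not reach 2-fold. Over the cytokine receptor list 0 of 17 were higher and 4 lower (Il2ra, Il2rb, Ifngr1 and Il10ra). Of 15 JAK, STAT and SOCS genes 0 were higher and 5 lower, among them Cish, a target of STAT5, at 9.17 and 11.2 CPM against 92.5 and 89.9 CPM.

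Lists of conventional and naive T cell genes leaned the other way against the remaining cells, which pool the 6 other clusters. Whether these lists, or the effector genes below, also differ from clusters 3 and 0 alone was not tested. Those clusters were the most like cluster 4 by the correlations given below. Of 10 conventional CD4 T cell genes 5 were higher (Dapl1, Cd40lg, Pde3b, Igfbp4 and Satb1), 0 lower and 5 between, with medians of 0.89 and 0.87; Dapl1 and Cd40lg are also among the 6 markers. Of 15 naive and central memory genes 3 were higher, 0 lower and 12 between, with medians of 0.45 and 0.39. Lef1 was 638 and 588 CPM against 232 and 227 CPM, the chromatin organiser Satb1 455 and 458 CPM against 219 and 225 CPM, and Actn1, an actin cross-linker, 240 and 204 CPM against 90.6 and 88.0 CPM. Tcf7 was 392 and 385 CPM against 214 and 220 CPM, and Ccr7 was 313 and 285 CPM against 141 and 154 CPM, both short of the 2-fold rule in a library. Klf2, a factor of T cell quiescence and trafficking, was at about the level of the remaining cells (754 and 786 CPM, against 789 and 764). The naive genes were therefore not all at a higher level than in the remaining, mostly Treg, cells.

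Effector genes were low against the same pool of remaining cells. Of 16 effector and memory genes 11 were lower, 0 higher and 5 between (medians -1.73 and -1.69). S100a4, a calcium-binding protein of activated T cells, was 9.41 and 6.08 CPM against 299 and 163 CPM, and the chemokine Ccl5 was 9.65 and 13.7 CPM against 159 and 221 CPM. Cd44, an adhesion receptor raised on memory cells, was 11.3 and 11.8 CPM against 38.1 and 37.7 CPM. In the same list Ly6c1 was an exception at 189 and 166 CPM against 151 and 107 CPM, between the limits of the rule. All 5 effector Treg genes that reached the minimum were lower, as were 3 of 5 Th1-type genes, among them Cxcr3 at 2.89 and 2.43 CPM against 62.9 and 55.2 CPM. Of 14 costimulatory and inhibitory receptors 8 were lower and 0 higher, and Cd28 itself, at 241 and 219 CPM against 273 and 252 CPM, was between.

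**Figure D3:**
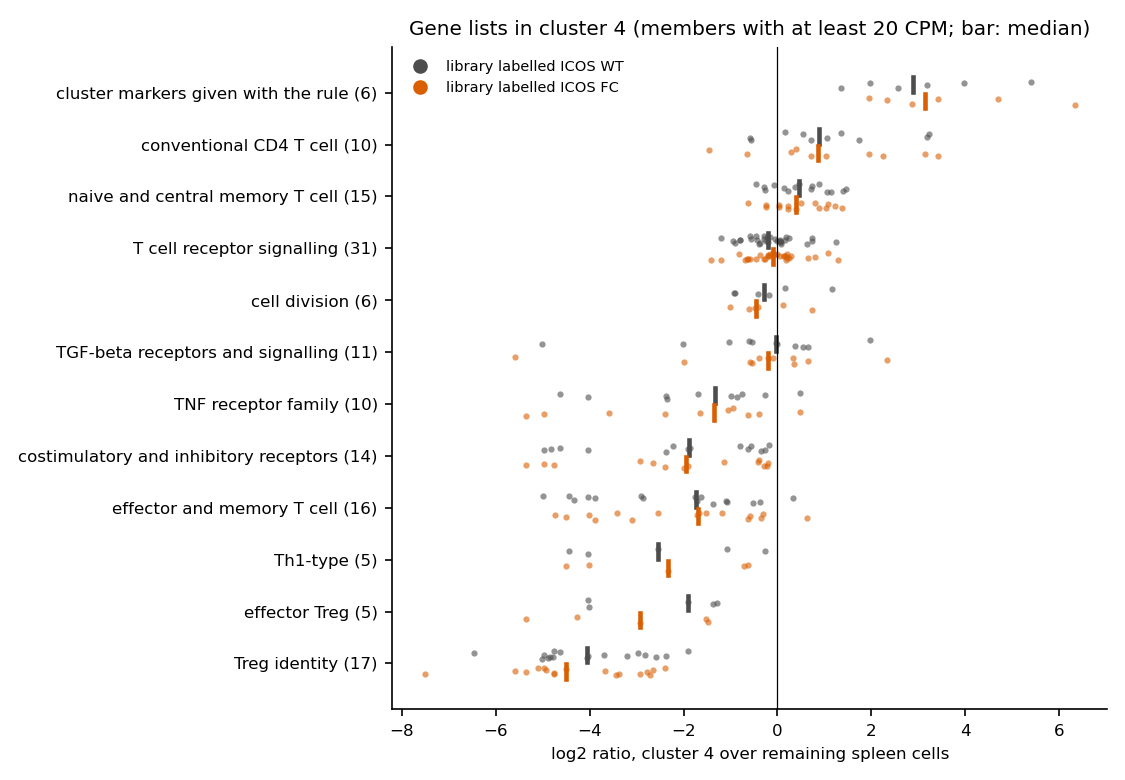
Log2 ratio of CPM in cluster 4 over the remaining spleen cells (horizontal axis) for the members of 12 gene lists (rows, with the number of members that reached 20 CPM), 1 point per gene and library, grey for ICOS WT and orange for ICOS FC, with a bar at each median. Treg identity genes lie at the bottom with medians of -4.06 and -4.50, and conventional CD4 T cell genes near the top with medians of 0.89 and 0.87.

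Of 31 genes of the T cell receptor pathway 1 was higher, 1 lower and 29 between, shares near those over all genes. The higher one was Themis, a signalling protein of the receptor, at 96.7 and 89.9 CPM against 40.8 and 36.7 CPM. The kinase Lck was 528 and 542 CPM against 510 and 479 CPM, and Cd3e was 499 and 571 CPM against 608 and 688 CPM. In the TGF-β list of 11 genes Tgfbr3 was higher and Lrrc32 and Tgif1 lower, while the signalling receptor Tgfbr2 (119 and 113 CPM, against 75.4 and 71.8) and the inhibitor Smad7 (233 and 231 CPM, against 159 and 181) were between. Among 16 receptors for peptides, lipids and nucleotides, Vipr1 and Gpr18 were higher and 5 were lower, including P2rx7, an ATP-gated channel, at 6.99 and 5.17 CPM against 53.1 and 38.4 CPM. The other VIP receptor, Vipr2, had no UMI in cluster 4, where a count of 0 allows up to 3 UMIs per library.

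Of 25 T cell transcription factors 2 were higher (Lef1 and Satb1) and 9 lower. Next to Foxp3 and Ikzf2, the lower ones included Maf at 12.1 and 9.42 CPM against 194 and 183 CPM, Ikzf4 at 6.75 and 7.29 CPM against 87.2 and 79.3 CPM, and Gata3 at 48.2 and 47.7 CPM against 119 and 122 CPM. Bcl11b, a factor of T cell commitment, was 391 and 394 CPM against 411 and 398 CPM, and Zbtb7b (ThPOK), which fixes the CD4 lineage, was 50.7 and 51.0 CPM against 45.3 and 43.7 CPM. Neither of the last pair passed the rule. Of 11 BCL2 family and apoptosis genes 2 were lower, among them Bcl2a1b at 20.5 and 19.7 CPM against 128 and 126 CPM, and 0 were higher. Of 28 interferon response genes 7 were lower and 0 higher, with medians of -0.45 and -0.41.

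Markers of other cell types were mostly scarce. The B cell list summed to 10.6 and 8.51 CPM in cluster 4 against 105 and 100 CPM in the rest, with Cd22 and Ms4a1 among the genes at 0 in both libraries. The erythroid and platelet list was at 0 in both, and the myeloid list summed to 78.4 and 79.9 CPM against 128 and 140 CPM. Killer lectin receptors summed to 23.2 and 35.2 CPM, nearly all of it Klrd1, and 17 of the 22 listed were at 0. Of 20 CD8 T and NK genes 4 reached the minimum: Klrd1 was higher, Nkg7 was lower (10.1 and 6.99 CPM, against 59.1 and 35.2), and Cd8b1 (28.9 and 37.4 CPM, against 15.8 and 16.2) and Ctsw were between. Cd8a was 2.41 and 3.65 CPM against 0.955 and 1.52 CPM, and Ncr1 and Klrc1 were at 0. The log2 ratios of Klrd1 to the remaining spleen cells were 3.98 and 4.70, and 4.01 and 4.25 without the 133 cells of the sub-cluster that held most Cd8a UMIs, described below.

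Cell by cell the 6 markers were more frequent in cluster 4 but did not separate it from the rest. After thinning to 2000 UMIs, 42.1% and 45.6% of cluster 4 cells had a UMI of none of them. In cells thinned to 2000 UMIs, at least 1 of the 6 markers had a UMI in 57.9% and 54.4% of cluster 4 cells and in 11% and 7.93% of the remaining cells. At least 1 of 8 Treg markers (Foxp3, Il2ra, Ikzf2, Ctla4, Tnfrsf18, Izumo1r, Capg and Gpr83) had a UMI in 31.2% and 33.9% of cluster 4 cells and in 91.7% and 91.6% of the rest, and at least 3 of them in 0.681% and 0.920% against 47.3% and 50.0%. Pdlim4 alone, before thinning, had a UMI in 35.3% and 26.1% of cluster 4 cells and in 0.939% and 0.399% of the rest, with median depths of 5492 and 4845 UMIs in cluster 4 and 4941.5 and 4292 in the rest.

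The few cluster 4 cells with a Foxp3 UMI were not at the Treg level of the other clusters. In these 9 and 16 cells the Treg identity list without Foxp3 summed to 861 and 1080 CPM. It summed to 317 and 318 CPM in cluster 4 cells without a Foxp3 UMI and to 3553 and 4036 CPM in the remaining spleen cells. The cells with a Foxp3 UMI were also deeper, with median totals of 6415 and 6303 UMIs against 5487.5 and 4829.

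Over 6162 genes the profile of cluster 4 was most like those of cluster 3 (Spearman correlation 0.958) and cluster 0 (0.954), and least like that of cluster 5 (0.822). These are descriptions over genes of summed clusters from the same libraries, which differ in depth. Cluster 0 held 10238573 and 9617987 UMIs in the libraries labelled ICOS WT and FC, and cluster 6 held 231525 and 558512. How far depth sets the order of these correlations was not tested. Cluster 3 was also the cluster with the next highest Dapl1, Vipr1, Klrd1 and Tgfbr3 in the library labelled ICOS WT, at 86.5, 16.8, 6.89 and 14.6 CPM. In the library labelled ICOS FC this held for Tgfbr3 alone (9.88 CPM); cluster 6 came next for Dapl1 and Vipr1, at 73.4 and 10.7 CPM, and cluster 2 for Klrd1, at 3.70 CPM.

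The second question was how cluster 4 differed between the library labelled ICOS FC and that labelled ICOS WT. Cluster 4 made up 14.8% of the cells in the library labelled ICOS WT (exact binomial interval 13.8 to 15.8) and 11.1% of those in the library labelled ICOS FC (10.3 to 11.9). The intervals did not overlap, but they count cells of 1 library each and do not cover differences between mice or sorts, and the YFP gate can set this share. Number 3 in another deposited cluster column held 1298 of the 1392 cells and gave 15.9% and 12.3%.

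Icos was 33.5 and 37.7 CPM in cluster 4, against the 126 and 287 CPM of the remaining cells. Its log2 ratio of ICOS FC over ICOS WT was 0.17 (interval -0.19 to 0.53) in cluster 4 and 1.19 in the remaining cells, and the difference of these ratios was -1.02 (-1.37 to -0.66). The higher Icos count of the library labelled ICOS FC was thus measured outside cluster 4 and was not detectable within it at this depth.

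Within cluster 4 a gene was counted as higher or lower in the library labelled ICOS FC when it reached 20 CPM in a library, differed by at least 1.5-fold and had an interval clear of equality. Of 4753 genes compared, 44 were higher (0.926%) and 31 lower (0.652%), so few genes passed. With totals that leave out ribosomal and mitochondrial genes, which raises every CPM, the numbers were 85 and 96. Of 16 AP-1 and immediate early genes, which are switched on within minutes of stimulation or cell handling, 6 were higher and 0 lower; the list's median log2 ratio was 0.39 in cluster 4 and 0.35 in the remaining cells.

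Fos, a subunit of the AP-1 factor, was 7.48 CPM (31 UMIs) in the library labelled ICOS WT and 54.1 CPM (178 UMIs) in that labelled ICOS FC, a log2 ratio of 2.85 (2.30 to 3.45). Junb, its partner, was 239 and 592 CPM (1.31, 1.20 to 1.42), and Jun was 87.8 and 179 CPM (1.03). In the remaining spleen cells the same genes had log2 ratios of 2.14, 0.92 and 1.18. The direction was shared by both populations, which come from the same 2 libraries. The feedback genes Dusp1, a MAP kinase phosphatase (8.68 and 24.6 CPM), Tnfaip3 (A20), an NF-κB inhibitor (9.17 and 25.2 CPM), and Ppp1r15a, a stress-induced phosphatase subunit (31.6 and 65.6 CPM), were the other 3 of the 6. Their log2 ratios were 1.5, 1.46 and 1.05 in cluster 4 and 1.00, 0.75 and 1.30 in the rest. Heat shock genes, another group that moves with handling, had a median log2 ratio of 0.37 with 0 of 8 past the rule, and 0.30 in the rest. The part of cell handling in these values was not tested.

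Other genes higher in the library labelled ICOS FC were the mitophagy kinase Pink1 (20.3 and 42.2 CPM), Frat2 (21.7 and 41.9 CPM), Sik1 (8.68 and 21.6 CPM), Ly6k (9.41 and 20.7 CPM), Birc2, an inhibitor of apoptosis (60.8 and 98.7 CPM), and L3mbtl3 (19.3 and 34.9 CPM). For Birc2 and L3mbtl3 the log2 ratios were 0.70 and 0.86 in cluster 4 and 0.17 and 0.23 in the rest. For Pink1, Frat2 and Sik1 they were 1.06, 0.95 and 1.31 in cluster 4 and 1.04, 0.69 and 1.17 in the rest. Ly6k had the larger ratio in the rest, at 1.14 in cluster 4 and 1.96 outside it. Among the genes lower in that library was Med10, a Mediator subunit, at 130 and 58.3 CPM (log2 ratio -1.15, interval -1.40 to -0.91). Ddit4 (REDD1), an inhibitor of mTORC1, was 215 and 116 CPM (-0.89, -1.07 to -0.72), and the chemokine receptor Cxcr4 was 71.6 and 42.2 CPM (-0.76, -1.06 to -0.47). The remaining cells gave -1.12, -0.84 and -0.30 for these 3 genes. Rnaset2a was 53.3 and 30.4 CPM, and 8 more genes of the ranking (Smarcad1, Klhdc1, Usp36, Rbm48, Prdx4, Gse1, Cfl2 and Ubash3b) had log2 ratios from -0.68 to -0.85. In cells thinned to 2000 UMIs, 14 of the 31 lower and 24 of the 44 higher genes still passed the rule, and Rbm48 was at 0.00098.

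**Figure D4:**
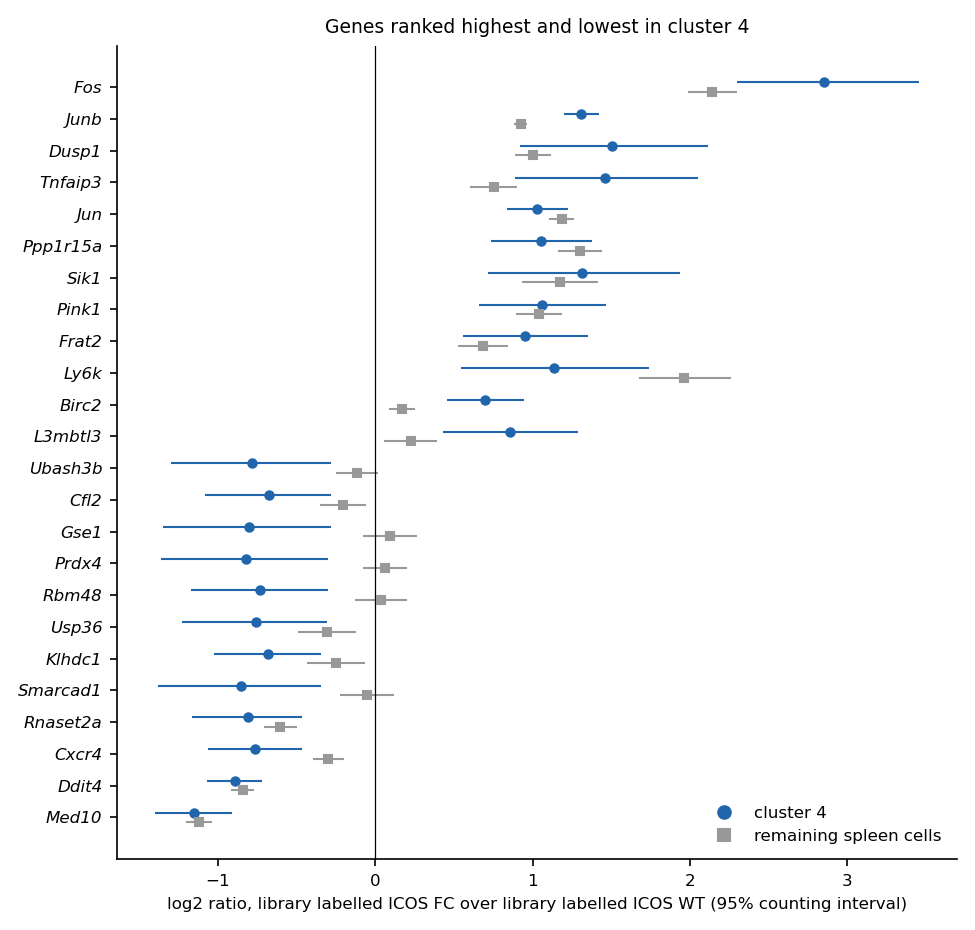
Log2 ratio of CPM, library labelled ICOS FC over that labelled ICOS WT (horizontal axis), with 95% counting intervals, for the 12 genes ranked highest and the 12 ranked lowest within cluster 4 (rows). Blue circles are cluster 4 and grey squares the remaining spleen cells; Fos stood at 2.85 and 2.14, and Med10 at -1.15 and -1.12.

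Among the 6 markers of cluster 4, Vipr1, Tgfbr3 and Cd40lg were near the same level in both libraries. Klrd1, Pdlim4 and Dapl1 had intervals clear of equality. Of the 6, Klrd1 passed the rule at a log2 ratio of 0.60 (0.19 to 1.01), Pdlim4 and Dapl1 were at -0.33 (-0.56 to -0.11) and -0.39 (-0.51 to -0.28), and Vipr1, Tgfbr3 and Cd40lg were between -0.02 and 0.10. The Klrd1 value rested on few cells: without the 133 cells of sub-cluster 3 it was 0.12 (-0.35 to 0.59), and the share of cells with a Klrd1 UMI was 9.23% and 9.62%. Foxp3 was under 20 CPM in both libraries; its log2 ratio was 1.56 (0.37 to 2.87) on 9 and 21 UMIs, and without sub-cluster 3 it was 2.66 (-0.50 to 8.23).

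The log2 ratio of ICOS FC over ICOS WT in cluster 4 was also set against that in the remaining cells. A difference was counted when it reached 1.5-fold, had a counting interval clear of 0 and the gene reached 20 CPM in a library of either population. Of 5322 genes, 67 had a higher ratio in cluster 4 (1.26%) and 43 a lower one (0.808%). Pdcd1 (PD-1) led the first group by rank with a difference of 2.14 (0.89 to 3.38). It was 1.93 and 3.95 CPM in cluster 4 (8 and 13 UMIs) and 54.9 and 25 CPM in the rest, so only the rest met the minimum. Its log2 ratio within cluster 4 was 1.03 (-0.35 to 2.51), which was not clear of equality. Outside cluster 4 it was -1.14 (-1.28 to -0.996). Icos led the other direction. Igf1r, the receptor for insulin-like growth factor 1, had a difference of -1.12, from 18.1 and 14 CPM in cluster 4 and 44.8 and 75.5 CPM in the rest, and Tnfsf8 (CD30 ligand) one of -0.90, from 43.9 and 35.9 CPM against 64.5 and 98.6 CPM.

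To see how the cells of cluster 4 varied among themselves, they were clustered again, which gave 5 sub-clusters at resolution 0.5. They are called by number, since the genes that define them came from the same cells. Sub-cluster 0 held 574 cells and was led by Scd2, Tet1, Idi1, Ptbp2, Hmgcs1 and Trip11, of which Scd2, Idi1 and Hmgcs1 make fatty acids and sterols. Sub-cluster 1 held 462 cells led by Them6, Ly6c1, Actg1, Sit1, Igsf23 and Rpsa, and sub-cluster 2 held 174 cells led by Tagap, Klf3, Fam46c, Crlf3, Il7r and Tnfrsf26. Sub-cluster 4 held 49 cells led by Iigp1, Ifit1, Irf8, Igtp, Gbp7 and Irgm2, interferon-induced genes for the most part. Every sub-cluster held cells of both libraries, but not in equal shares. Sub-cluster 0 made up 44.8% of cluster 4 in the library labelled ICOS WT (41.1 to 48.4) and 37.3% in that labelled ICOS FC (33.5 to 41.1). Sub-cluster 1 went the other way, at 30.3% (27.0 to 33.7) and 36.5% (32.8 to 40.3). For sub-clusters 2 and 4 the intervals overlapped. How far such shifts enter the ICOS FC over ICOS WT ratios of cluster 4 was not tested.

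Sub-cluster 3, with 133 cells (9.91% of cluster 4 in the library labelled ICOS WT and 9.16% in that labelled ICOS FC), was led by Cd8a, Nkg7, Foxp3, Ikzf2, Maf and Ly6c2. It held 24 of the 30 Foxp3 UMIs and 20 of the 22 Cd8a UMIs of cluster 4, and a Cd8a UMI was found in 7.52% of its cells. At the finer resolution of 0.8, a sub-cluster of 12 cells held 20 Cd8a and 33 Nkg7 UMIs, and another of 158 cells held 24 Foxp3 UMIs, so these signals lay mostly in different cells. Its Treg markers summed to 690 CPM against 150.1 to 210.2 CPM in the other 4, and its CD8 T and NK markers to 199 CPM against 11.3 to 31.0 CPM. Pdlim4 was lower there, at 31.8 CPM. Without these cells Ikzf2 had log2 ratios of -6.44 and -6.11 to the remaining spleen cells instead of -4.89 and -4.77, and Foxp3, on 1 and 5 UMIs, had -7.84 (interval -13.1 to -5.36) and -5.26 (-6.89 to -4.04) instead of -4.84 and -3.37. Foxp3 and Ikzf2 are among the genes that lead sub-cluster 3, so their lower ratios in the other 1259 cells follow from how it was made. The ratios of Pdlim4 were 5.55 and 6.41 without sub-cluster 3 and 5.41 and 6.33 with it.

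**Figure D5:**
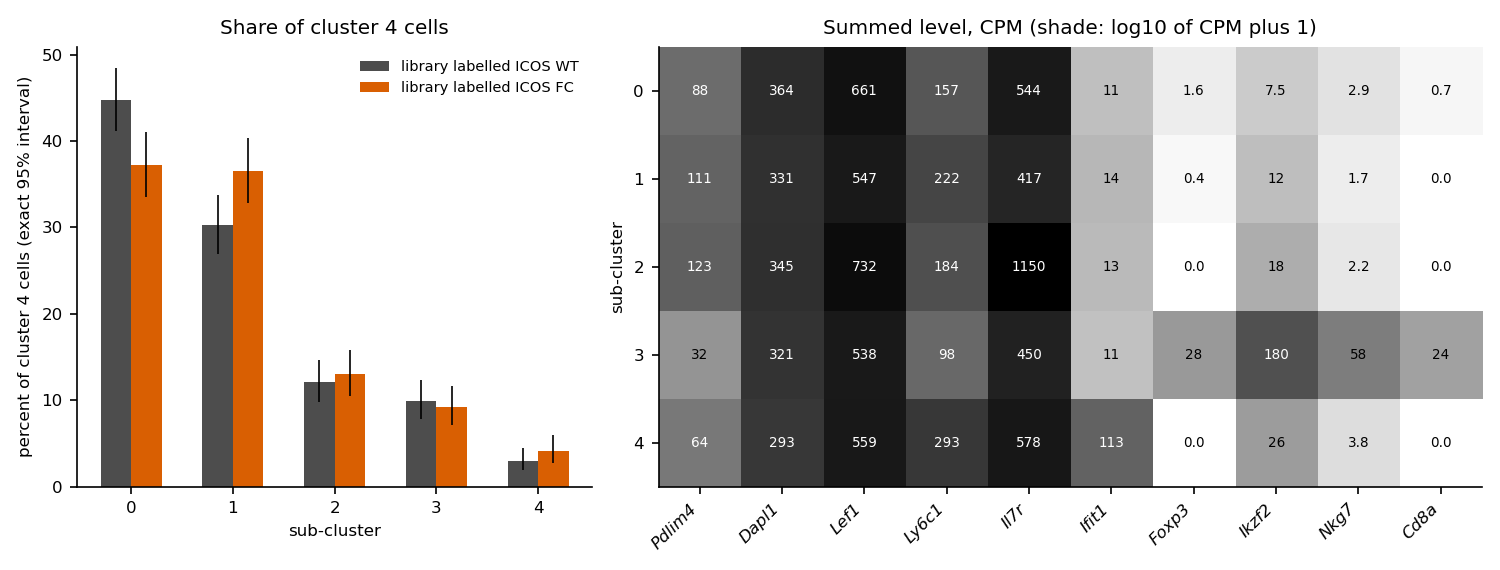
Left, percent of cluster 4 cells in each of 5 sub-clusters (bars from 0, exact 95% intervals) in the libraries labelled ICOS WT (grey) and ICOS FC (orange). Right, summed level in CPM of 10 genes (columns) in each sub-cluster (rows), with darker shade for a higher log10 of CPM plus 1; Foxp3 (28.3 CPM), Ikzf2 (180) and Cd8a (23.6) were highest in sub-cluster 3, which had the lowest Pdlim4 (31.8).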

How the data were processed

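Gene expression was measured in 1 spleen library per group. The submitters' processing notes name the build GRCm38.p6 (mm10) and the tools Seurat 3.0, Cell Ranger 4.0.0 and R 3.6.1; what each did, and any doublet removal, was not stated. The deposited expression value is a natural log, taken of 1 plus a gene's UMIs in 10000 of its cell. Inverted with the deposited UMI count per cell, 100% came out whole within 0.001. The deposited percent of mitochondrial counts served only as a filter alternative. UMIs were summed per library and cluster and scaled to CPM. Ratios carry exact conditional Poisson intervals (differences of ratios a normal one), too narrow where UMIs sit in few cells. The scripts were tested on simulated data. Sub-clusters came from 1000 variable genes, 15 components, 15 neighbours and Leiden clustering at resolution 0.5.

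Groups came from the labels. The members, the 39 gene lists, the rules of size and the rule for named genes were chosen with earlier results of these data known. Named genes were Icos, Foxp3, the markers, the 15 highest and 15 lowest genes of cluster 4, 12 and 12 of ICOS FC against ICOS WT, 8 and 8 differences of ratios, each ranked by the interval bound nearest equality, 6 leading genes per sub-cluster, and list members beside their list's counts. Gm and Rik models, receptor segments, immunoglobulins and haemoglobin, sex-linked and mitochondrial genes were not ranked. Some genes that the rule names are left out of the text. Coordinates are from GENCODE M21, and promoters from RefSeq, on GRCm38.p6. Python 3.11.15, NumPy 2.4.6, SciPy 1.17.1 and pandas 2.3.3 were used. The alternatives were other scalings, minimum levels, cell filters, thinning, per-cell means, equal cluster weights, other cluster columns and resolutions.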

Additional observations from a re-analysis of the deposited data

Results flagged for a closer look

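Only the named genes and the members of the gene lists were searched here, so no share over all genes is given. For some of them the log2 ratio of ICOS FC over ICOS WT had opposite signs in cluster 4 and in the remaining spleen cells. Both counting intervals were clear of 0. Nmb, Traf3, Suco, Rcbtb1, Cd6, Zfp422, Ptms and Ccs had been named by their rank in this same difference. The choice of genes therefore partly sets the list, and its length is not read as a result. With 1 library per group none of these differences was tested, and over many genes such intervals can part by counting error in some. With the higher level in ICOS FC inside cluster 4 and the lower level outside it there were Nmb, a neuropeptide precursor (0.92 and -0.17), Traf3, an adaptor of TNF receptors (0.73 and -0.22), Suco (0.62 and -0.25), Rcbtb1 (0.55 and -0.32), Inpp5d, the phosphatase SHIP1 (0.44 and -0.19), Id2 (0.40 and -0.34), Cd6 (0.29 and -0.34) and Il2rg (0.14 and -0.17). Nmb was under 20 CPM in cluster 4 of both libraries (7.24 and 13.7 CPM) and met the minimum through the remaining cells alone.

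Lower within cluster 4 and higher outside it were Zfp422 (-0.68 and 0.29), Ptms (-0.48 and 0.31), Ccs, a copper chaperone (-0.44 and 0.45), Bbc3, the death protein PUMA (-0.35 and 0.34), Slamf6 (-0.27 and 0.06), Itga4 (-0.21 and 0.13) and Ccr7 (-0.14 and 0.13). In addition Zfp507 had log2 ratios of cluster 4 over the remaining cells of -0.45 in the library labelled ICOS WT and 0.49 in that labelled ICOS FC. This difference was not tested either.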

How the results depend on the processing

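No paired analysis was possible because each group was 1 library, and for the same reason no library could be left out. Of 155 alternative values of the counts and shares, 119 stayed within their limits and 36 moved. Of 1718 single values 1600 stayed, 117 moved and 1 reversed, Rbm48 in ICOS FC over ICOS WT, at 0.00098 in thinned cells. The ratio of a gene does not depend on the minimum level or the interval width. Under those alternatives it stayed by construction, so the 1600 include values that could not move. The counts of higher and lower genes in cluster 4 (31 and 215) became 72 and 490 with a minimum of 5 CPM and 93 and 711 with none; 65 were higher with totals without ribosomal and mitochondrial genes, and the cause was not tested; 163 of the 215 lower genes were kept there.

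For ICOS FC against ICOS WT (44 and 31) the counts were 85 and 96 with those totals, 121 and 139 at 5 CPM, 155 and 161 with no minimum, 92 and 88 in cells thinned to 2000 UMIs and 22 and 12 with intervals at an error of 0.1%; 52 were lower in cells under 5% mitochondrial counts. For the differences of ratios (67 and 43) the counts under the same totals, minimums, thinning and intervals were 126 and 100, 177 and 129, 212 and 152, 151 and 77, and 16 and 10. At that error rate the 31 and 215 genes of cluster 4 were all kept. Of the differences of ratios, 29 of the 67 and 12 of the 43 were kept in thinned cells. The rise in thinned cells was not examined further, and the cause was not tested.

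The shares of cluster 4 (14.8% and 11.1%) were 16.6% and 12.2% in cells under 5% mitochondrial counts, 15.9% and 12.3% by another deposited column and 17.4% and 13.7% by an earlier one. The shares of cells with a Foxp3 UMI were 0.545% and 0.920% in thinned cells. Resolutions of 0.3 and 0.8 gave 2 and 8 sub-clusters. Depth limits what can be said of genes under 20 CPM, Foxp3 among them, with 9 and 21 UMIs in cluster 4.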

Other observations

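The markers of spleen cluster 4 were also measured in the cervical lymph node libraries taken 1 day after oxazolone, where tissue, challenge and library all differ, so the levels stand side by side only. No lymph node cluster came near its Pdlim4, which reached at most 15.9 CPM in the library labelled ICOS WT and 10.5 CPM in that labelled ICOS FC, both in lymph node cluster 5. Klrd1 and Cd40lg, in contrast, reached 75.7 and 127 CPM and 216 and 98.3 CPM in lymph node cluster 7, where Cd8a also peaked at 174 and 170.0 CPM. Dapl1 reached 225 and 125 CPM. The lowest Foxp3 of a lymph node cluster was 32.4 and 28.7 CPM, above the 2.17 and 6.38 CPM of spleen cluster 4.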
